A study of Mus musculus with 42 samples.

Results

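The genes for the subunits of the receptors that bind glutamate and GABA were followed across cerebellar RNA-seq libraries of mice on intermittent fasting. Members were chosen by name alone, as protein-coding genes with a symbol of the Gria, Grid, Grik, Grin, Grm, Gabra, Gabrb, Gabrg, Gabrr or Gabbr series or Gabrd, Gabre or Gabrq. The rule gave 46 of the 35275 genes listed, of which 26 encode glutamate receptor subunits and 20 encode GABA receptor subunits. After removal of low counts, 43 members could be tested at the end of the regimens and 42 after refeeding. Grm6, Gabrr1 and Gabrr3 were left out of both tests and Gabre of the second.

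All mice were male C57BL/6 (C57/BL6NTac in the design text), entered the study at 3 months of age and carried no stated transgene or allele. AL mice fed ad libitum throughout. IF16 mice went without food for 16 h of every day, and EOD mice for 24 h on alternate days. These 3 groups were collected after 3 months, at 6 months of age. The groups AL-R, IF16-R and EOD-R went through the same regimens, then had 2 further months of ad libitum feeding, and were collected at 8 months of age. Each of the 6 groups had 5 libraries. The labels do not say whether each library is a single mouse, so the p-values measure the spread between these libraries. The hour of collection relative to the last meal is not given in the sources used here.

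Fast excitation in the brain runs through AMPA, kainate and NMDA receptors, which are tetramers of homologous subunits that form a cation channel. Fast inhibition runs through GABA-A receptors, pentameric chloride channels usually built from alpha and beta subunits with a gamma or delta subunit. Metabotropic glutamate receptors and GABA-B receptors act more slowly through G proteins. In the cerebellum, granule cells are the most numerous neurons, and they are known for the alpha6 and delta GABA-A subunits, for the NMDA subunit GluN2C and, at their parallel fibre terminals, for mGluR4. Purkinje cells are the sole output of the cerebellar cortex.

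The libraries held 26799825 to 36167435 counts. Markers of the labelled tissue were present: the summed level of 6 Purkinje cell genes was 4479 to 6834 CPM (counts scaled to a common library total) and that of 6 granule cell genes 3248 to 4622 CPM. The sum of 5 forebrain genes was 5.09 to 8.98 CPM. The summed level of 11 choroid plexus genes ran from 155 to 5133 CPM, with medians of 2871, 943.9 and 2671 CPM in AL, IF16 and EOD, and its part in the results was not tested. The libraries also differed in a length gradient, the slope of a library's log2 CPM on log2 gene length after centring each gene. It spanned -0.158 (AL replicate 4) to 0.139 (EOD replicate 4) at the end of the regimens and -0.0261 to 0.0416 after refeeding. AL replicate 4, AL replicate 5 and IF16 replicate 1 stood apart with gradients under -0.1 and EOD replicate 4 with one over 0.1. In bulk tissue, fewer cells of a type and less RNA per cell cannot be told apart.

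Levels are given as RPKM, the counts per kilobase of the deposited gene length relative to the library's total, scaled by the TMM method within each of the 2 tables. A level set across the 2 tables therefore also carries that separate scaling, the difference in age and any difference between the runs. The 10 members with the highest levels made up 78.1% of the summed RPKM of all members at the end of the regimens and 75.9% after refeeding. Means over the 15 libraries at the end of the regimens were 222 RPKM for Gabra6 (GABA-A alpha6), 176 for Gabbr1 (GABA-B1), 159.5 for Grm4 (mGluR4) and 111 for Grin2c (GluN2C). Gabrd (the delta subunit), Grin1 (the obligatory NMDA subunit GluN1), Gria1 and Gria4 (GluA1 and GluA4) and Gabbr2 (GABA-B2) were also among the 10, at 101, 92.3, 91.4, 71.4 and 54.5 RPKM. The same 10 genes led after refeeding, from 204 RPKM for Gabra6 to 64.6 for Gabbr2. The highest member, Gabra6, lay above 98.7% of the genes tested at the end of the regimens.

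**Figure D1:**
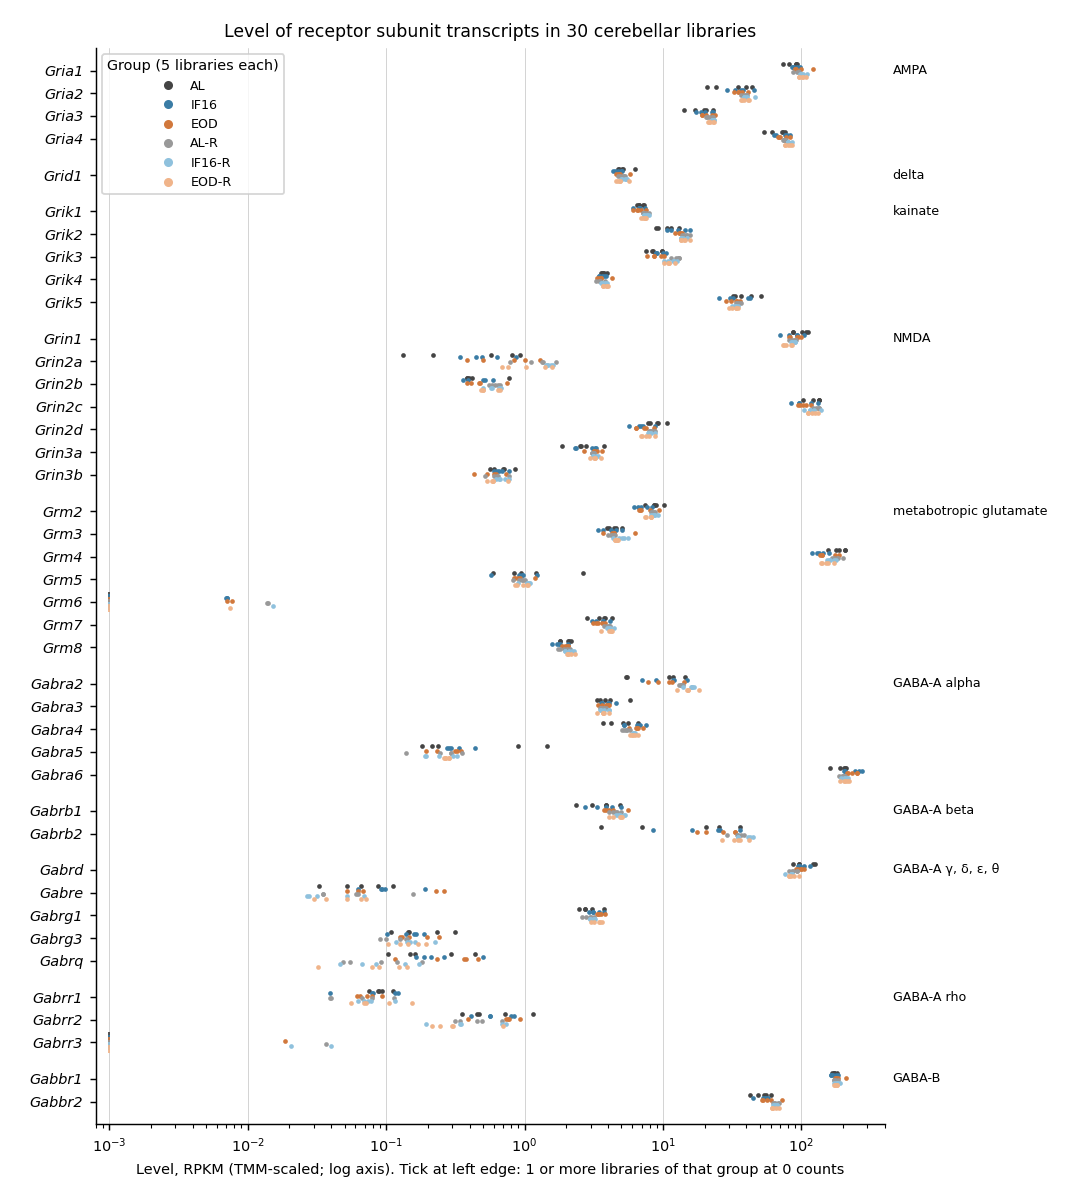
Level in RPKM (log axis) of receptor subunit transcripts, grouped by receptor family, with 1 point per library and colours for the 6 groups. Levels span from Gabra6 near 222 RPKM to Grm6 and Gabrr3, which had 0 to 2 counts per library, and the AL points of Gabrb2, Grin2a and Gabra5 are among the most scattered.

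Among the AMPA receptor subunits, Gria1 carried 42.2% ± 2.46 (SD, n = 5) of the family's summed RPKM in AL, Gria4 33.0% ± 0.839, Gria2 15.6% ± 2.72 and Gria3 9.18% ± 0.444. Gria2 encodes GluA2, the subunit that limits calcium entry through AMPA channels. Its share was between 15.6% and 17.0% in the 6 groups. Over the 15 libraries at the end of the regimens, Grid1 (GluD1, a delta subunit) had a mean of 4.95 RPKM. Of the kainate subunits, Grik5 (GluK5) had 35.4 RPKM, followed by Grik2 (GluK2) at 12.3, Grik3 at 9.09, Grik1 at 6.78 and Grik4 at 3.67.

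The NMDA receptor transcripts were dominated by Grin1 and Grin2c. Grin2c made up 92.6% ± 0.851 (SD, n = 5) of the GluN2 transcripts in AL and 92.1% to 92.8% in the other 5 groups. Grin2d (GluN2D) held 6.64% in AL. Grin2a and Grin2b, the GluN2 subunits of most forebrain synapses, had means of 0.63 and 0.48 RPKM at the end of the regimens. Grin3a (GluN3A) had 2.92 RPKM and Grin3b 0.646. Among metabotropic receptors, Grm4 had the highest level at 159.5 RPKM, and lower levels were those of Grm2 at 7.81, Grm3 at 4.40, Grm7 at 3.54, Grm8 at 1.92 and Grm5 at 1.04 RPKM. Grm6, the receptor of retinal ON bipolar cells, had 0 to 2 counts per library.

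Gabra6 made up 63.4% ± 2.82 (SD, n = 5) of the GABA-A alpha transcripts in AL. Gabra2, Gabra4, Gabra3 and Gabra5 held 3.06%, 1.63%, 1.34% and 0.194%. Among gamma and delta subunits, Gabrd held 76.8% ± 3.83 in AL. The delta subunit replaces gamma in receptors outside the synapse that carry tonic inhibition. The beta family was the least even between libraries. Gabrb2 held 18.2% to 56.8% of beta transcripts in the AL libraries, with a mean of 40.5%, and 53.9% to 60.3% in AL-R, with a mean of 57.6%. Gabre, Gabrq and the 3 rho genes had at most 1.16 RPKM in any library (Gabrr2 in AL replicate 5). Gabrr3 was at 0 to 2 counts per library.

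**Figure D2:**
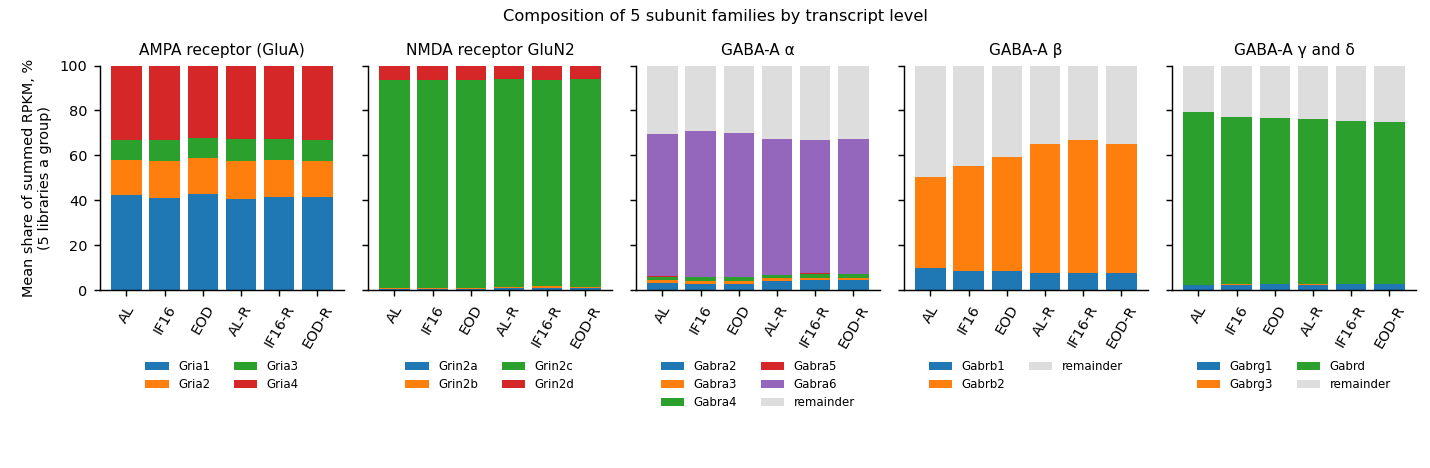
Stacked bars of the mean share (%) of subunits in their family's summed RPKM in the 6 groups of 5 libraries, with grey for the remainder of a family. Grin2c, Gabra6 and Gabrd lead their families in every group, and the beta family shows the largest difference between groups, from 40.5% Gabrb2 in AL to 59.5% in IF16-R.

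Most GABA-A genes lie in clusters. Gabrg1, Gabra2, Gabra4 and Gabrb1 share 1387.3 kb of chromosome 5 (chr5:70751047-72138389, mm10), and Gabre, Gabra3 and Gabrq share 586.6 kb of chromosome X (chrX:72255999-72842602). Within the chromosome 5 cluster, mean levels at the end of the regimens were 10.4 RPKM for Gabra2, 5.91 for Gabra4, 3.92 for Gabrb1 and 3.25 for Gabrg1.

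The 250 bases before the transcription start are shown for the member with the highest level (Gabra6), for the member that leads the GluN2 family (Grin2c) and for an alpha subunit of low level whose libraries did not overlap after refeeding (Gabra4). Sequences are RefSeq, assembly GRCm38.p6, minus strand, 5′ to 3′ toward the start, with CpG dinucleotides in capitals. They lie at chr11:42321073-42321322, chr11:115267244-115267493 and chr5:71658309-71658558.
Gabra6: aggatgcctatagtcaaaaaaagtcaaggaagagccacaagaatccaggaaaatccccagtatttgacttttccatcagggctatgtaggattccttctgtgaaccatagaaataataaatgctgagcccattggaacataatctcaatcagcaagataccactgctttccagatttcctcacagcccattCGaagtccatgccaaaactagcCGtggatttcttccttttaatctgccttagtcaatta
Grin2c: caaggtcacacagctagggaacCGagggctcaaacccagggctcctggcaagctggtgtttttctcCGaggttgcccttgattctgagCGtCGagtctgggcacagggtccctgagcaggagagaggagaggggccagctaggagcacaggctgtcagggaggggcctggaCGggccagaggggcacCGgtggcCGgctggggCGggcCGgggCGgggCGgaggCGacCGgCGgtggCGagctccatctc
Gabra4: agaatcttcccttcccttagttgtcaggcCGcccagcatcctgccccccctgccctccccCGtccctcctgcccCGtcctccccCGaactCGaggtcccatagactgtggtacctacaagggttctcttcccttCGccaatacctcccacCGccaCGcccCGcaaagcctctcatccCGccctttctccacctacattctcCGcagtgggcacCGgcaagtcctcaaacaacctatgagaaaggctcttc

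The Gabra6 window held 2 CpG dinucleotides and 40.8% G and C, against 15 and 68.8% for Grin2c and 12 and 61.2% for Gabra4. Of the 46 members, 31 were found in the promoter table. Their median G and C content was 61.2%, against 52.4% over 32536 distinct promoter windows of the same length. Each member entered with 1 window, at the start nearest its deposited gene start, while the windows of all genes include alternative starts. The start used lay 4247 bases from the deposited one for Grin2d and 683 for Gabrb2. The GC box GGGCGG, searched on both strands, was in 17 of the 31 (54.8%) and in 33.0% of all windows. TTGGC, the half-site of NFI factors, was in 17 of the 31 and in 41.6% of all windows. The E-box CANNTG was in 16 of the 31 and in 66.2% of all windows. Such matches describe the letters of these windows only.

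The first question was whether either regimen altered receptor transcripts by its end. No member passed an adjusted p under 0.05 in either comparison with AL (edgeR quasi-likelihood test, Benjamini-Hochberg adjustment over all genes tested). Calls were rare throughout: 0.0483% of the 16577 genes in IF16 against AL and 0.0664% in EOD against AL. At an unadjusted p under 0.05 stood 7 of 43 members for IF16 and 9 of 43 for EOD, or 16.3% and 20.9%, beside 9.92% and 14.4% of all genes. DESeq2 called 1 member for IF16 (Grm4, adjusted p = 0.0206, in a range of 0.0206 to 0.443 over 17 alternatives) and 0 for EOD, beside DESeq2 calls of 0.587% and 0.812% of all genes. The median log2 fold change of the members was 0.03 for IF16 and 0.12 for EOD, against -0.01 and -0.02 over all genes. With the length gradient as a covariate in the fit, these medians turned to -0.03 and -0.04, against 0.00 and 0.01 over all genes. The 95% confidence interval of the fold change lay within 0.5 of 0 on the log2 scale for 26 of 43 members in IF16 and for 23 in EOD. Both comparisons share the AL libraries.

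Grm4, the presynaptic mGluR4 receptor, had the smallest p for IF16. Its levels in AL were 157, 205, 186, 177 and 205 RPKM (replicates 1 to 5). In IF16 they were 134, 157, 118, 129 and 143 RPKM, and in EOD 137, 140.2, 140.3, 187 and 176. IF16 and AL overlapped only between IF16 replicate 2 and AL replicate 1, both at 157, while EOD overlapped AL more widely. The log2 fold change was -0.45 (SE 0.107) for IF16, with an adjusted p of 0.191 in edgeR, and -0.25 (SE 0.107, adjusted p = 0.327) for EOD. Against the length gradient, Grm4 had Pearson r = -0.231 (permutation p = 0.41) and Spearman rho = -0.239.

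Gabra6 was higher in the fasted groups by small amounts. Its levels were 210.4, 202, 205, 162 and 191 RPKM in AL, 207, 201, 275, 245 and 263 in IF16 and 232, 252, 250.4, 216 and 213 in EOD. All EOD libraries of Gabra6, and of no other member, exceeded all AL libraries, beside 1.36% of all genes in that direction. No member's IF16 libraries all exceeded the AL libraries, beside 0.857% of all genes. The log2 fold changes were 0.30 (SE 0.0966, adjusted p = 0.363) and 0.26 (SE 0.0966, adjusted p = 0.314) in the edgeR fit. Grik2, which encodes the kainate receptor subunit GluK2, had values of 0.29 and 0.31 (SE 0.111 in both). Its AL libraries lay at 13.0, 11.4, 10.6, 8.88 and 9.2 RPKM, its IF16 libraries at 10.7, 11.4, 15.6, 14.5 and 12.9, and its EOD libraries at 13.2, 13.5, 13.0, 13.7 and 12.3. Gabra4, an alpha subunit that often pairs with delta, had log2 fold changes of 0.31 and 0.36 (SE 0.141 in both).

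Grin2c and Grin2d, the GluN2 subunits with the highest levels here, had values in the other direction. Grin2c stood at 102, 134, 122, 134 and 133 RPKM in AL, at 117, 131, 84.3, 95.9 and 96.3 in IF16 and at 107, 98.1, 103, 94.9 and 118 in EOD. EOD overlapped AL through AL replicate 1, and IF16 also through IF16 replicate 2. The log2 fold changes were -0.25 for IF16 and -0.26 for EOD (SE 0.111 in both). Grin2d had -0.35 and -0.30 (SE 0.114 in both). The low-level Grin2a and Grin2b had 0.58 (SE 0.434) and 0.08 (SE 0.219) in EOD. Grm2 (mGluR2, a receptor of Golgi cells) had -0.29 in IF16 (SE 0.107). In EOD against AL, Gabrg1 had 0.26. Gabra5 had -1.07 (SE 0.482), a value that rests on 2 AL libraries: replicates 1 and 4 had 1.45 and 0.903 RPKM, the other AL libraries 0.181 to 0.235 and the EOD libraries 0.194 to 0.350.

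**Figure D3:**
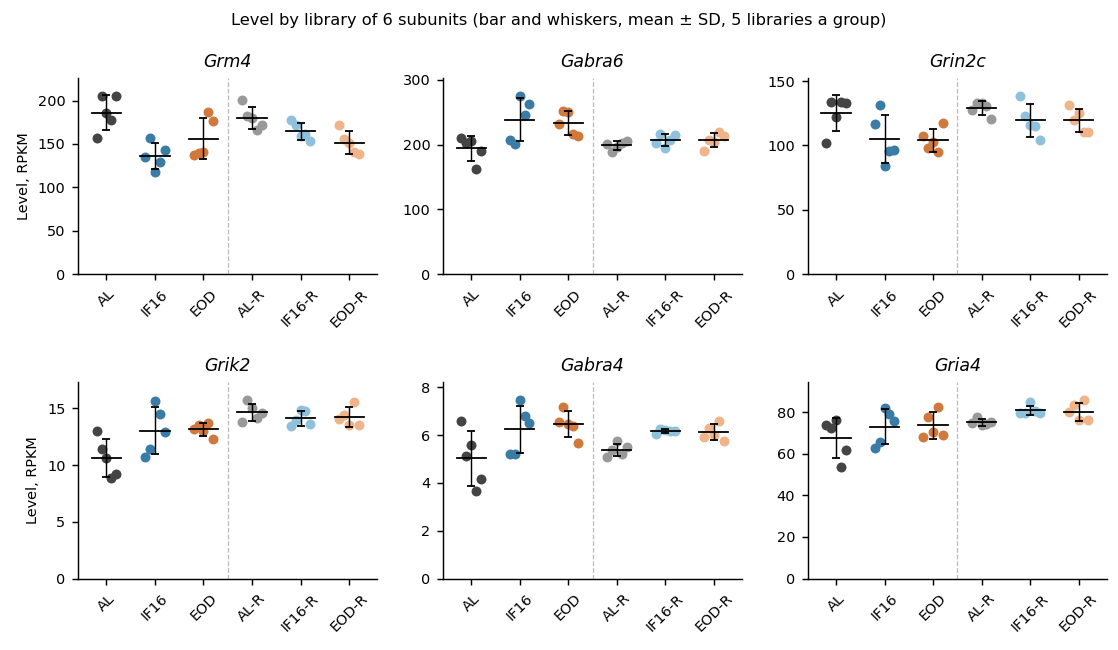
Level in RPKM of Grm4, Gabra6, Grin2c, Grik2, Gabra4 and Gria4 in each library, with mean ± SD of the 5 libraries a group. Grm4 has its lowest library in IF16 (118 RPKM) and Gabra4 does not overlap between AL-R (5.08 to 5.77) and IF16-R (6.04 to 6.27).

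By family, all 4 AMPA subunits had a positive log2 fold change in both comparisons, with medians of 0.11 for IF16 and 0.15 for EOD, and none of them had an unadjusted p under 0.05. With the gradient in the fit, all 4 stayed positive for IF16 (median 0.03), but for EOD only Gria1 did (0.06), with Gria2 at -0.08, Gria3 at -0.04 and Gria4 at -0.04. All 3 beta subunits were also positive without the gradient, with medians of 0.12 and 0.26. With it, 2 of 3 were positive for IF16 (median 0.01) and 0 of 3 for EOD (median -0.05). Gabrb2 went from 0.51 to -0.05 in EOD, and Gabrb1 had -0.06 for IF16 and -0.05 for EOD. The 7 NMDA subunits had medians of -0.04 and -0.14, and the 7 metabotropic receptors tested -0.15 and -0.07. These medians were -0.15 and -0.12 for NMDA subunits and -0.17 and -0.19 for metabotropic receptors with the gradient in the fit. EOD and IF16 were not told apart by any member. In EOD against IF16, 0 of 43 members and 0% of all genes were called by edgeR, DESeq2 called 0 beside 0.004% of all genes, and 0 members had an unadjusted p under 0.05, beside 3.62% of all genes. The smallest p-values belonged to Grm8, Grm4 and Gabbr1, with log2 fold changes of 0.16, 0.19 and 0.10.

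Much of the spread at the end of the regimens followed the length gradient. Gabrb2, a beta subunit, ranged 10-fold: it had 35.7, 25.4, 20.3, 3.57 and 7.05 RPKM in AL, 8.46, 16.3, 35.8, 25.7 and 25.1 in IF16 and 27.1, 33.2, 20.4, 33.2 and 17.6 in EOD. The 3 lowest values belonged to AL replicates 4 and 5 and IF16 replicate 1, the libraries with gradients under -0.1. Its log2 CPM followed the gradient with Pearson r = 0.945 and Spearman rho = 0.95 (permutation p = 1e-05 for both, the smallest that 100000 resamples can give; 8.5e-05 and 0.00012 after adjustment). Leaving out the 2 libraries with the most distant gradients gave r = 0.983. Grin2a ranged 9.77-fold, from 0.132 RPKM in AL replicate 4 to 1.29 in EOD replicate 4, with r = 0.934 (permutation adjusted p = 8.5e-05) and rho = 0.921 (permutation adjusted p = 0.00012).

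Of the 43 members, 22 were positively and 3 negatively related to the gradient at the end of the regimens, at a permutation p adjusted over the 85 relations computed in both tables. That rule was applied to members only, so no share of all genes stands beside its counts. Among the positive ones were Gabrb1 (0.972), Gabbr2 (0.956) and Gria3 (0.951). The 3 negative ones were Gabrd (-0.881), Grik5 (-0.796) and Grin2c (-0.737). The gradient comes from the same libraries, over genes that include the members. The permutation p-values therefore do not set members against other long genes. The median r was 0.632 over the members and -0.0899 over all genes tested. A coefficient over 0.8 was found for 15 members, or 34.9%, and for 15% of all genes tested. One under -0.8 was found for 1 member and for 11.7% of all genes. Members are long transcripts, with a median of 4799 bases against 2988 over all genes tested. Of the 3 members with a negative relation, Gabrd has 2707 bases, Grik5 3836 and Grin2c 4895. Of those named with a positive one, Gabrb1 has 3089 bases, Gabrb2 3989, Grin2a 4820, Gria3 5206 and Gabbr2 5737. The part of transcript length in these relations was not tested. After refeeding, 12 members were positively and 1 negatively related by the permutation rule, over a narrower range of gradients and again with no share of all genes. A coefficient over 0.8 was then found for 1 of 42 members (2.38%) and for 0.851% of all genes. These relations hold over libraries pooled from 3 groups. The part of RNA quality or tissue makeup in them was not tested.

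**Figure D4:**
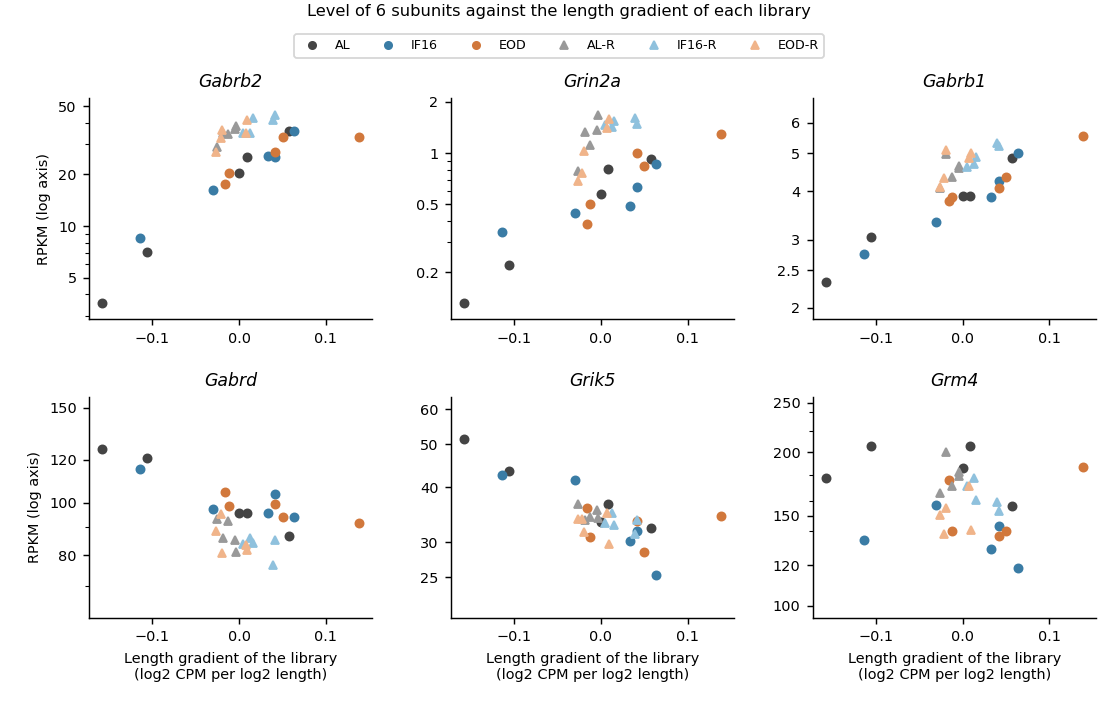
Level in RPKM (log axis) of 6 subunits against the length gradient of each of the 30 libraries (circles, end of the regimens; triangles, after refeeding). At the end of the regimens, Gabrb2, Grin2a and Gabrb1 climb with the gradient, Gabrd and Grik5 go down, and Grm4 has r = -0.231. After refeeding, Grik5 has r = -0.332 (permutation adjusted p = 0.35). Gradients were centred within each collection, so circles and triangles do not share a zero point.

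The groups did not separate by gradient at the end of the regimens (means -0.0394 in AL, -0.0011 in IF16 and 0.0405 in EOD; exact permutation p = 0.452 for IF16 and 0.175 for EOD against AL, n = 5 each). With the gradient as a covariate in the edgeR fit, 9 members for IF16 and 5 for EOD had an unadjusted p under 0.05, beside 14.2% and 8.33% of all genes. All 7 of the first comparison kept their sign and an unadjusted p under 0.05. Of the 9 of the second, 3 did, Grik2, Grm4 and Gabra5. Several values for EOD were smaller with the gradient in the fit. Grik2 went from 0.31 to 0.14, Gabra4 from 0.36 to 0.16, Gabra6 from 0.26 to 0.16, Gabrg1 from 0.26 to 0.13 and Grin2c from -0.26 to -0.12. Grm4 had -0.24, beside -0.25 without it. No member was called with the gradient in either comparison, beside 0.374% and 0.0422% of all genes.

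Receptor subunits that assemble together were examined as 6 pairs over the 15 libraries of each table, 12 relations in all. At the end of the regimens, 4 pairs were correlated. One of them, Gria2 and Gria4, had Pearson r = 0.856 (permutation adjusted p = 0.00054) and Spearman rho = 0.707 (permutation adjusted p = 0.018). Their r was 0.639 without the 2 farthest libraries. With the gradient held constant, their partial r was 0.397 (permutation adjusted p = 0.31) and no longer passed. Gabbr1 and Gabbr2, the obligate partners of the GABA-B receptor, had r = 0.789 (permutation adjusted p = 0.0033; rho = 0.6, permutation adjusted p = 0.059, which did not pass; 0.730 without 2) and a partial r of 0.815 (permutation adjusted p = 0.0048). Gabra6 with Gabrd (r = -0.553) and Grin1 with Grin2a (r = -0.554) did not pass, each at a permutation adjusted p of 0.056. Their rho was -0.429 and -0.4 (permutation adjusted p = 0.17 and 0.19). Without the 2 farthest libraries, their r was -0.259 and -0.339. With the gradient held constant, their partial r was 0.0966 and -0.0664 (permutation adjusted p = 0.89 for both). Leaving out 1 library changed both calls. The first passed without AL replicate 1, AL replicate 2 or IF16 replicate 5 (permutation adjusted p = 0.032, 0.048 and 0.045), and the second without AL replicate 2 or EOD replicate 4 (0.041 and 0.045). After refeeding, no pair passed with all libraries.

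The libraries collected after refeeding were more alike than those at the end of the regimens. The coefficient of variation of a member over the 15 libraries had a median of 6.20%, against 15.5% at the end of the regimens, and the medians over all genes were 8.11% and 14.3%. In the ad libitum controls, the length gradient also had a narrower range, -0.0257 to -0.0036 in AL-R against -0.158 to 0.0575 in AL. The 2 collections also differed in age and may differ in run, and the part of refeeding was not tested. The second question was whether differences from the controls were present after refeeding. edgeR called no member in IF16-R against AL-R, beside 0.170% of the 16444 genes, or in EOD-R against AL-R, beside 0.0426%. DESeq2 called 1 in each, Gabra4 in IF16-R (adjusted p = 0.0257) and Grm4 in EOD-R (adjusted p = 0.0193), beside DESeq2 calls of 0.680% and 0.544% of all genes. Over 16 alternatives each, the adjusted p of Gabra4 ran from 0.0257 to 0.999 and that of Grm4 from 0.000689 to 0.383. The 0.000689 came from the edgeR fit with the replicate number as a block, and the labels do not pair libraries by number. The share of all genes called in that fit was not computed. Members with an unadjusted p under 0.05 numbered 9 of 42 (21.4%, beside 9.58% of all genes) and 12 of 42 (28.6%, beside 8.5%). The 95% interval lay within 0.5 of 0 on the log2 scale for 37 of 42 members in both comparisons. Both share the AL-R libraries.

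Gabra4 had 5.08, 5.38, 5.77, 5.22 and 5.50 RPKM in AL-R. It had 6.04, 6.27, 6.20, 6.16 and 6.19 in IF16-R, and 5.94, 6.32, 6.03, 6.59 and 5.77 in EOD-R. Every library of both formerly fasted groups was above the AL-R libraries, in EOD-R by a margin within rounding at 5.77. The log2 fold changes were 0.20 (SE 0.0472, edgeR adjusted p = 0.122) and 0.19 (SE 0.0473, edgeR adjusted p = 0.208).

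Libraries did not overlap for 4 members in IF16-R against AL-R, all higher, beside 1.07% of all genes. Among them, beside Gabra4, were the AMPA subunits Gria1 and Gria4. Gria4 had 74.8, 77.8, 73.7, 74.2 and 75.2 RPKM in AL-R and 79.6, 79.6, 84.9, 80.5 and 79.7 in IF16-R. The log2 fold changes of Gria1 and Gria4 were 0.12 and 0.11. Grm3 (mGluR3, found on glia as well as neurons), Gabra2 and Gria3 had 0.22, 0.23 and 0.08, and Grik3 and Grm4 had -0.13 each. Of 12 marker lists, 1 also separated these groups: the sum of the 6 Purkinje cell genes, none of them at 0, was 6313 to 6750 CPM in IF16-R and 6038 to 6245 in AL-R. Itpr1 weighed most in this sum, with 2650 to 3480 CPM over the 3 groups after refeeding. Itpr1 and Slc1a6 had their highest library in IF16-R, Pcp2 had it in AL-R, and Calb1, Car8 and Ppp1r17 had it in EOD-R. The sum of 8 genes of Bergmann glia and astrocytes was 2440 to 2650 CPM in IF16-R and 2201 to 2457 in AL-R. Their part in the result was not tested. The AL-R and IF16-R libraries also separated by length gradient (means -0.0129 and 0.0229, no overlap; exact permutation p = 0.00794, two-sided, n = 5 each). With the gradient in the edgeR fit, 3 members had an unadjusted p under 0.05 in this comparison, beside 4.16% of all genes, and 1 of them (Grik3) was among the 9. The log2 fold change was then 0.14 for Gabra4, 0.03 for Gria1, 0.03 for Gria4 and -0.01 for Gria3. It was 0.05 for Gabra2, 0.10 for Grm3, -0.20 for Grik3 and -0.11 for Grm4. Regimen and gradient cannot be told apart in these 10 libraries.

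In EOD-R against AL-R the gradients did not separate (means -0.0099 and -0.0129; exact permutation p = 0.738, n = 5 each), and all 12 members kept their sign and an unadjusted p under 0.05 with the gradient in the fit, where 9.24% of all genes had such a p. Grm4 had 200.2, 183, 179, 166 and 172 RPKM in AL-R and 171, 156, 151, 141 and 138 in EOD-R. The groups overlapped through AL-R replicate 4 and EOD-R replicate 1. The log2 fold change was -0.25 (SE 0.0587, edgeR adjusted p = 0.171), beside -0.25 in EOD against AL. IF16-R lay between, at 178, 172, 159, 161 and 153 RPKM. Grik3, Grin1 and Grm2 had log2 fold changes of -0.18, -0.13 and -0.10. Gabrg1, Gabra2, Grik4, Gria1 and Gria4 had 0.21, 0.18, 0.13, 0.11 and 0.09. Libraries did not overlap for 3 members, all higher in EOD-R, beside 0.949% of all genes, and Gabra4 and Grm3 were among them. Of the 12 marker lists, 2 also separated these groups, with no gene of either at 0. The 8 genes of Bergmann glia and astrocytes summed to 2460 to 2631 CPM in EOD-R and 2201 to 2457 in AL-R. The 7 oligodendrocyte genes summed to 5569 to 6652 CPM in EOD-R and 4997 to 5555 in AL-R. Their part in the values of Grm3, Gabrg1, Gabra2 and Grm4 was not tested.

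EOD-R and IF16-R differed in no member at the adjusted threshold (0 calls by edgeR, beside 0.0182% of all genes, and 0 by DESeq2, beside 1.59%). Grm2, Grin1 and Grin2a had an unadjusted p under 0.05, 7.14% of members beside 9.75% of all genes. Their log2 fold changes were -0.13, -0.13 and -0.47. Grin2a had 1.42, 1.46, 1.60, 1.55 and 1.48 RPKM in IF16-R and 1.40, 1.02, 0.686, 1.58 and 0.759 in EOD-R. The gradients of these 2 groups differed as well (exact permutation p = 0.0238, n = 5 each), and with the gradient in the fit the Grin2a value was 0.07.

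**Figure D5:**
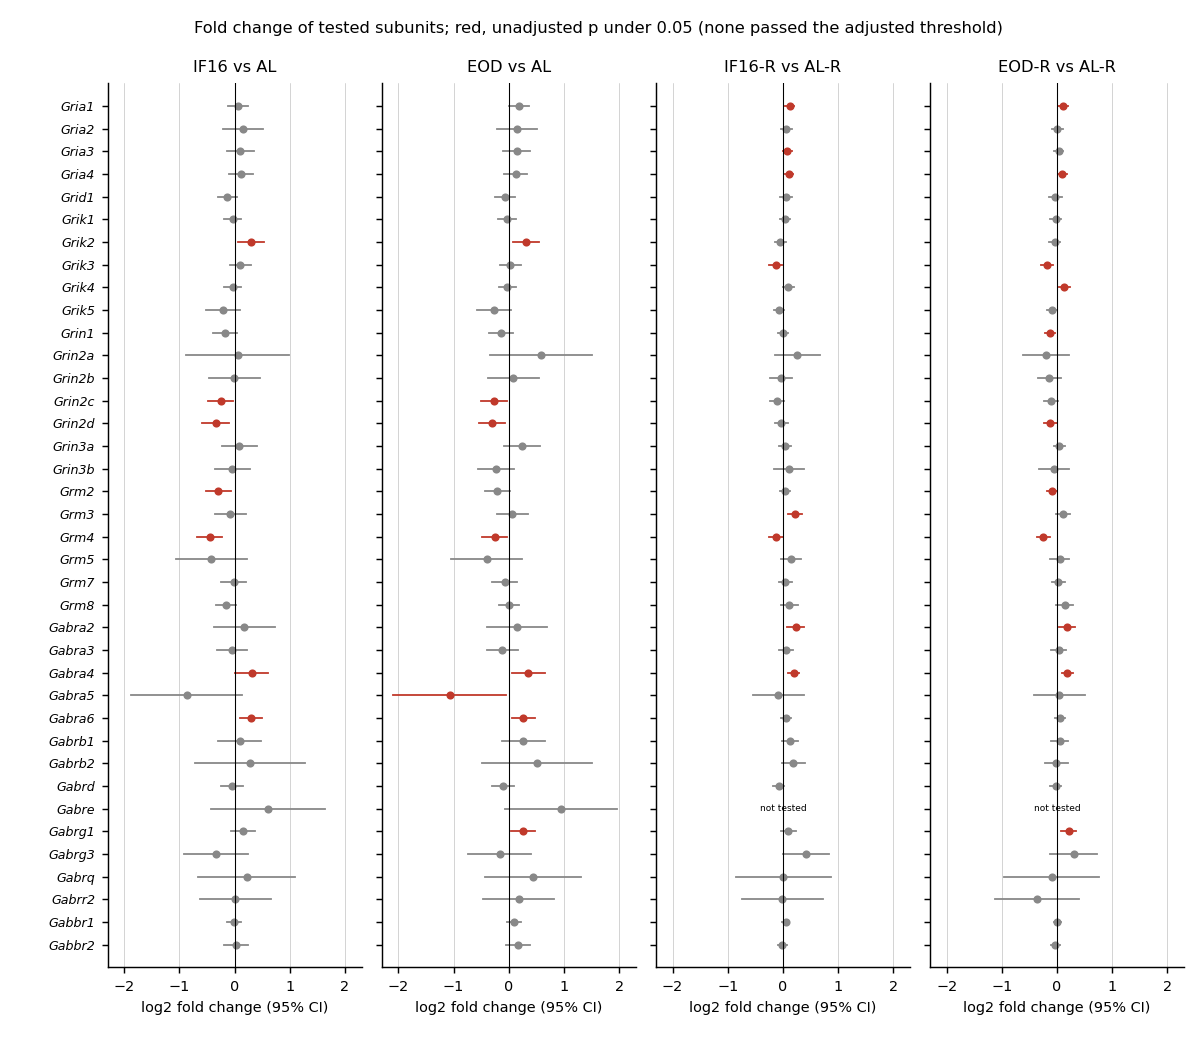
Log2 fold change and 95% confidence interval of tested members in the 4 comparisons with ad libitum controls, with an unadjusted p under 0.05 in red. Intervals are narrower after refeeding (median SE 0.0533 for IF16-R) than at the end of the regimens (0.119 for IF16), and no member passed the adjusted threshold.

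A single fit of all 30 libraries tested whether the difference from controls at the later collection departed from that at the earlier one. No member was called for IF16 (beside 0.0474% of 16877 genes) or for EOD (beside 0.0119%) by edgeR. DESeq2 also called none, beside 0.161% and 0.102% of all genes. At an unadjusted p under 0.05 stood 8 of 43 members for IF16 (18.6%, beside 7.21% of all genes) and 3 for EOD (6.98%, beside 10.3%). Grik2 was among both, with -0.34 (SE 0.126) for IF16 and -0.35 (SE 0.126) for EOD on the log2 scale. With the gradient in the fit the EOD value was -0.19. Its difference from controls was positive at the end of the regimens, while after refeeding AL-R, IF16-R and EOD-R had means of 14.6, 14.1 and 14.2 RPKM. For IF16, Grm2, Grm4, Grm8, Grin2d and Gabrg3 had positive interactions of 0.33, 0.32, 0.27, 0.32 and 0.75, and Gabra6 and Grik3 had -0.23 each. The Gabrg3 value was 0.48 without AL replicate 1. For EOD, Gabre had -1.40, or -0.87 without AL-R replicate 1. Gabre had 4 to 37 counts per library and Gabrg3 29 to 107.

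Of 59 other genes of glutamate and GABA synapses (transporters, synthetic enzymes, auxiliary subunits and scaffolds), 58 could be tested at the end of the regimens and 57 after refeeding. Of these, 1 was called, in 1 comparison. Shisa9, an auxiliary subunit of AMPA receptors, rose from 8.67 ± 0.475 RPKM in AL-R to 10.4 ± 0.609 in IF16-R (SD, n = 5 each; log2 fold change 0.26, SE 0.0476, edgeR adjusted p = 0.0312), with no overlap of libraries. It had 9.77 ± 0.326 RPKM in EOD-R. Calls made up 0.170% of all genes in IF16-R against AL-R. With the length gradient in the fit, 0 of 16444 genes were called there, so the Shisa9 call was lost. Regimen and gradient cannot be told apart in that comparison. In both comparisons with AL, Cnih3, a cornichon auxiliary subunit of AMPA receptors, had the smallest p of the 59, with log2 fold changes of -0.99 and -1.13. Its AL libraries ran from 1.11 to 4.09 RPKM. The AMPA auxiliary gene Cacng8 had -0.33 in EOD against AL and -0.15 in EOD-R against AL-R.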

How the data were processed

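RNA-seq read counts of 30 libraries were analysed; 12 chromatin samples are not analysed here. Per the submitters' processing notes the tools were STAR 2.5, HTSeq 0.6.1 and DESeq2 2, with build mm10. The deposited counts are whole reads per gene in 2 tables of 15 libraries; strand handling is not given in the sources used here, so overlapping and antisense genes may share reads. No column lacked a sample. Over 60 pairs of libraries of one group, none agreed within sampling noise (chi-square per degree of freedom 4.24 to 136).

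Counts were fitted with edgeR 4.0.16 (R 4.3.3) after filterByExpr and TMM, 1 fit per table and 1 joint fit for the 2 interactions. P-values were adjusted over all genes tested, with 0.05 as the threshold for a call. Correlations used log2(CPM + 0.1), with 100000 resamples. Alternatives were DESeq2 1.42.0, other size factors, no filter, fits of only 2 groups, a replicate block, the length gradient as covariate and each library left out; leaving out 4 libraries was chosen after seeing the data. Scripts were tested on simulated data. The members and lists were chosen with earlier results of these data known. In each comparison, members were named by adjusted call, then by unadjusted p under 0.05 in order of p up to 10, or the 3 smallest p. Of the 59 other synapse genes, those called, or the 2 with the smallest p, may be named. Members named for libraries without overlap, for their spread or for their relation to the gradient were chosen after their values were seen. Some genes are not reported here by name and stay in the counts, medians and family totals.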

Additional observations from a re-analysis of the deposited data

Results flagged for a closer look

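In 225 groups of 5 libraries, 15 member values (6.67%) lay apart from the other 4 by a gap over 0.71 of the group's range; chance flags about 1 group in 20. Values are RPKM.

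EOD replicate 4, the library with the highest length gradient, stood above the rest of its group for Gabbr1 (210.0 against 173 to 183), Grid1 (5.76 against 4.56 to 4.87), Grik4 (4.27 against 3.32 to 3.58), Grm5 (1.18 against 0.844 to 0.927) and Grin2b (0.749 against 0.383 to 0.475). AL replicate 1 was high for Grid1 (6.23 against 4.76 to 5.11) and Grin2b (0.774 against 0.381 to 0.417). IF16 replicate 3 was high for Gabrq (0.503 against 0.164 to 0.261) and Gabre (0.190 against 0.0628 to 0.0977).

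After refeeding, IF16-R replicate 3 was high for Gria4 (84.9 against 79.6 to 80.5) and low for Gabrd (76.5 against 83.9 to 85.9). IF16-R replicate 1 was high for Gria2 (46.2 against 38.6 to 40.3) and replicate 2 low for Grm5 (0.902 against 1.04 to 1.09). In EOD-R, replicate 1 was high for Grin3b (0.755 against 0.536 to 0.587) and replicate 5 for Gabrr2 (0.702 against 0.216 to 0.303).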

How the results depend on the processing

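Counts of called members were 0 in the main edgeR fits. DESeq2 called 1 member in IF16 against AL (Grm4), 1 in IF16-R against AL-R (Gabra4) and 1 in EOD-R against AL-R (Grm4). The length gradient as covariate gave 1 in the IF16 interaction (Grik2, log2 -0.34, edgeR adjusted p = 0.0327, in a range of 0.0327 to 0.855 over 26 alternatives). Leaving out single libraries gave 0 to 1 members in IF16-R against AL-R (Grm3 without IF16-R replicate 1, adjusted p = 0.0363, in a range of 0.0363 to 0.999) and 0 to 1 in EOD-R against AL-R (Grm4 without EOD-R replicate 1, adjusted p = 0.0479). For the interaction with the gradient and for fits without single libraries, the share of all genes called was not computed. With the gradient as covariate, Gria3 in IF16-R against AL-R turned to -0.0131 and Grin2a in EOD-R against IF16-R to 0.0679. The cause was not tested.

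With the replicate number as a block, the count was 1 in EOD-R against AL-R (Grm4, edgeR adjusted p = 0.000689) and 0 in the other 5 comparisons and both interactions. No share of all genes called was computed for the block fits. The numbers do not pair the libraries by the labels. Correlations of same-numbered libraries ran from -0.534 to 0.322 at the end of the regimens and from -0.055 to 0.427 after refeeding, with 2 and 5 of 15 libraries closest to their own number.

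Correlated pairs at the end of the regimens numbered 4, or 4 to 6 when single libraries were left out and 2 with the gradient held constant, where Gabra6 with Gabrd turned to 0.0966. After refeeding, 0 to 2 pairs passed when single libraries were left out (1 without AL-R replicate 1, 2 without AL-R replicate 2). There, Grin1 with Grin2a turned to -0.0102 with the gradient held constant and to -0.352 with group means subtracted and ran from -0.129 (without EOD-R replicate 3) to 0.283 when single libraries were left out. Some members under 1 RPKM rest on few counts: at the end of the regimens, Gabra5 had 14 to 133 per library and Gabrr2 24 to 70. Grin2b, with a deposited length of 23640 bases, had 281 to 633.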
